A study of Mus musculus with 12 samples.

Results

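Heme biosynthesis was described in whole fetal liver through 9 genes, out of 30743 rows of the deposited table, taken by gene symbol: Slc25a38, Alas1, Alas2, Alad, Uros, Urod, Cpox, Ppox and Fech. All 9 symbols had a row. The livers came from 12 male C57BL/6J fetuses at 15 ± 0.5 dpc (days post coitum), 6 from control dams and 6 from high-fat diet (HFD) dams. Dams ate a diet with 13.5 kcal% fat (control) or 60 kcal% fat (HFD) for 12 to 14 weeks before the fetal harvest, and no group carried a transgene or a deletion according to the labels. Total RNA of each whole liver was polyA-selected and sequenced, so hepatocytes, blood cells and vessels were measured together, and fewer cells of a type cannot be told apart from less RNA per cell.

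Heme is the iron-containing ring of hemoglobin, cytochromes and catalase. Its synthesis starts in the mitochondrion, where aminolevulinate synthase joins glycine and succinyl-CoA, continues in the cytosol, and returns to the mitochondrion, where ferrochelatase inserts iron. The fetal liver is the main site of red cell production at this age, and both erythroblasts and hepatocytes make heme, the former for hemoglobin and the latter largely for cytochrome P450 enzymes. Aminolevulinate synthase has a ubiquitous form, Alas1, and an erythroid form, Alas2, whose mRNA carries an iron-responsive element, a hairpin through which iron regulatory proteins hold back its translation when iron is short.

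What the table gives for a gene, apart from the diet comparison, is 1 average level in log2 CPM (counts per 1000000 reads, on a log2 scale). Values of single livers or of single diet groups were not used here. The fold changes and p-values of the table are the authors' own comparison of the diets and were left out, so HFD and control livers were not compared here. The levels therefore carry no error between livers, no order between neighbouring genes was tested, and the number of reads behind each value is unknown. Of the 30743 rows, 11091 shared the lowest value of the table, -2.71, and 10171 lay above 1 CPM. The median of the 19652 rows above the lowest value was 0.20 log2 CPM.

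The sequences of 2 promoters are shown because Cpox had the highest average level of the members and Alas2 is the erythroid form of the first enzyme, and because both windows hold a motif read by GATA1, the master transcription factor of red cells. Each is the 250 bases before the gene's start in RefSeq, build GRCm38.p6, written 5′ to 3′. The Cpox window is chr16:58669958-58670207 on the plus strand and the Alas2 window is chrX:150547167-150547416 on the plus strand, and both lie upstream of the annotated first exon. Capitals mark every match to AGATAA and AGATAG as well as TGATAA and TGATAG, on either strand, and matches of these motifs may overlap.
Cpox: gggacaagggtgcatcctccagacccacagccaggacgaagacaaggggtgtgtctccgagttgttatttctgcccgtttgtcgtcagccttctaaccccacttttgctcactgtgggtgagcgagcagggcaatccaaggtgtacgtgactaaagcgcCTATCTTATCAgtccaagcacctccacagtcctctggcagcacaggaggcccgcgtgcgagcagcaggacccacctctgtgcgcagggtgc
Alas2: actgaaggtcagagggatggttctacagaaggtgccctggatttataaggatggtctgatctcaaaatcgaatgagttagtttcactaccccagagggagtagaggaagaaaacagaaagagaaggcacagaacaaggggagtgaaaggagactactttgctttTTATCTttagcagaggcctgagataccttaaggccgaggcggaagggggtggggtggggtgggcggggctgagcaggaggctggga
The Cpox window held 2 overlapping matches and the Alas2 window held 1. RefSeq windows were given for 8 members, 11 windows in all, since Alas1, Alad and Uros had more than 1 start. A match was found for 3 of the 8 members, Cpox, Alas2 and Uros, and in Uros only at its second start. Of all 32851 promoter windows of this length, 26.5% held at least 1 match and 6.40% held 2 or more, so that a match is common by itself. The windows of Slc25a38, Alas1, Alad, Urod and Ppox did not hold these letters.

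The iron-responsive element was searched for as a hairpin of the letters CAGTGN between 2 stems of 5 pairing bases (G with T allowed), with a C before the first stem. In the 5′ untranslated regions of 21877 genes of GENCODE M21 (GRCm38), 31 genes (0.142%) held such a hairpin on the transcribed strand, and among the 9 members Alas2 alone did. The iron storage genes Fth1 and Ftl1 and the iron exporter Slc40a1 were also among the 31. The Alas2 hairpin is shown with its loop in capitals, and the same 17 bases stood at bases 90 to 106 of the 126-base 5′ untranslated region of the longer Alas2 transcript and at bases 6 to 22 of the 42-base region of the shorter one.
Alas2 hairpin: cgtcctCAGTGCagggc

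The average levels of the 9 members fell into a high and a low group. Above 100 CPM stood 4 members, under 2 CPM stood 4, and Uros lay between them. The median of the 9 was 3.62 log2 CPM (12.3 CPM), at percentile 73.6 of the rows above the lowest value. Levels between genes were compared as CPM per kb of annotated exon, and on that scale the 4 high members made up 99.5% of the summed level of all 9.

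Slc25a38, the mitochondrial carrier that supplies glycine for the first step, lies on chromosome 9 of GRCm38 from 120110377 to 120126093. Its average level was 8.12 log2 CPM (278 CPM), or 101 CPM per kb. It thus lay at percentile 97.5 of the rows above the lowest value, the lowest of the high group.

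Both forms of aminolevulinate synthase, the rate-limiting enzyme, were in the low group. Alas1 (chromosome 9, 106233455 to 106247954) was listed at the lowest value of the table, so no fold against it is given. Alas2 (chromosome X, 150547417 to 150570622) was listed at -0.51 log2 CPM (0.704 CPM), or 0.293 CPM per kb, at percentile 43.3. Alas2 made up 0.0355% of the summed level per kb of the 9 members, and 0.0143% with coding length in place of exon length. The table therefore placed the erythroid enzyme below 1 CPM in an organ in which Slc4a1, the anion exchanger of the red cell membrane, was listed at 12037 CPM. The levels of Alas1 and Alas2, and the share of Alas2, are given as listed and not as low expression. How the authors assigned reads to genes with several mRNAs is not given in the sources used here, and a change of length does not address it.

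The cytosolic steps held members of both groups and Uros between them. Alad, porphobilinogen synthase (chromosome 4, 62505984 to 62520063), was listed at -0.66 log2 CPM (0.633 CPM), or 0.338 CPM per kb. Uros, which closes the tetrapyrrole ring (chromosome 7, 133686142 to 133710467), was listed at 3.62 log2 CPM (12.3 CPM), or 3.43 CPM per kb. Urod, uroporphyrinogen decarboxylase (chromosome 4, 116989965 to 116994436), was listed at 9.72 log2 CPM (845 CPM), or 326 CPM per kb. Urod was first of the 9 members per kb, with 39.6% of their summed level.

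Of the last 3 enzymes, which act at the mitochondrion, the first and second were high and the third was low. Cpox, coproporphyrinogen oxidase (chromosome 16, 58670208 to 58680391), had the highest level without length, 10.78 log2 CPM (1756 CPM), at percentile 99.7 of the rows above the lowest value. Per kb it had 264 CPM, so Urod was 1.24-fold higher on that scale. Ppox, protoporphyrinogen oxidase (chromosome 1, 171276991 to 171281193), was listed at 9.19 log2 CPM (582 CPM), or 129 CPM per kb. Fech, ferrochelatase (chromosome 18, 64456542 to 64489098), was listed at 0.64 log2 CPM (1.55 CPM), or 0.112 CPM per kb, at percentile 53.6 without length and 27.6 per kb. The earlier enzymes Alas2 and Alad were also low, at 0.293 and 0.338 CPM per kb, and Alas1 was at the lowest value. The step that inserts iron was listed far below the step just before it, with Ppox per kb of exon 1149-fold the level of Fech. The fold was 558 by longest transcript, 375 without length, 332 by coding length and 1274 with the lowest level of the table subtracted, alternatives chosen after seeing the data. All these folds rest on the same listed levels of Ppox and Fech and change only the length or the floor. The part of read assignment in these levels was not tested, and the value of Fech is not given as low expression.

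**Figure D1:**
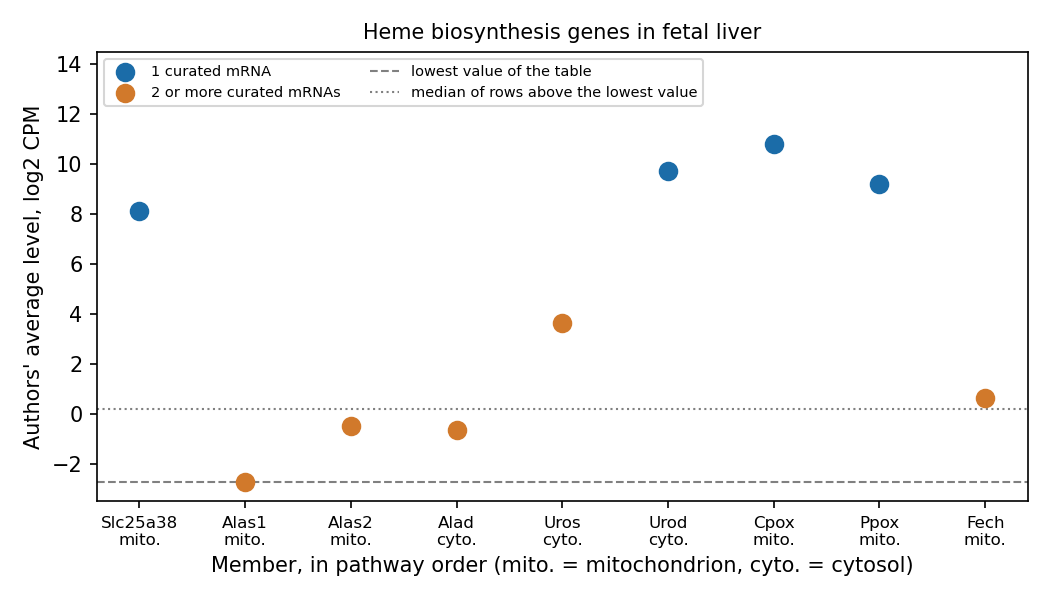
Average level of each member in log2 CPM, as the authors' table gives it, in pathway order. Each point is 1 gene, blue where RefSeq lists 1 curated mRNA and orange where it lists 2 or more. The 4 blue points lie from 8.12 to 10.78 and the 5 orange points from -2.71, the lowest value of the table, to 3.62.

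The high and the low members differed in how many mRNAs RefSeq lists for the gene. A curated mRNA is here an entry of the RefSeq gene table (GRCm38.p6) with the prefix NM. The annotation behind the authors' counts may list other numbers of mRNAs per gene. Cpox, Urod, Ppox and Slc25a38 each had 1 curated mRNA, and their levels ranged from 8.12 to 10.78 log2 CPM. Alas1, Alas2, Alad and Fech had 2 each and Uros had 5, and their levels ranged from -2.71 to 3.62. The groups did not overlap, and the lowest gene with 1 mRNA lay 4.50 log2 units above the highest gene with more. With mRNAs counted by their match to GENCODE, Fech had 1, the groups overlapped and the same difference was -2.98. Where the curated mRNAs could be matched to GENCODE transcripts, those of Alas2 shared 92.9% of the bases they cover, those of Alad 93.0%, those of Uros 65.2% and those of Alas1 63.9%. For Uros only 3 of its 5 curated mRNAs were matched, so its value covers a part of them. For Fech 1 of its 2 curated mRNAs was matched, so no shared part could be computed.

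The same values were taken over all 20235 protein-coding genes with a curated mRNA and a row in the table. Above 100 CPM stood 10.4% of the 12500 genes with 1 curated mRNA, 4.77% of the 3963 genes with 2 and 2.68% of the 3772 genes with 3 or more. Among genes with 2 or more matched mRNAs, the share above 100 CPM was 3.47% of 1037 where under 50% of the covered bases were shared, and 0.734% of 1770 where 90% or more were shared. Genes at the lowest value of the table were 24.4% of those with 1 mRNA and 18.5% of those with 2 or more. Within genes with 2 or more matched mRNAs, the share at the lowest value was 13.0% where under 50% of the bases were shared, 18.2% of 2403 genes between 50% and 90%, and 24.9% where 90% or more were shared. The share at the lowest value was thus lower with more mRNAs, and higher with more shared bases. How the authors assigned reads to genes with several mRNAs is not given in the sources used here, and the part of read assignment in the levels of the members was not tested. The low values of Alas1, Alas2, Alad, Uros and Fech are accordingly given as listed values and not as low expression.

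**Figure D2:**
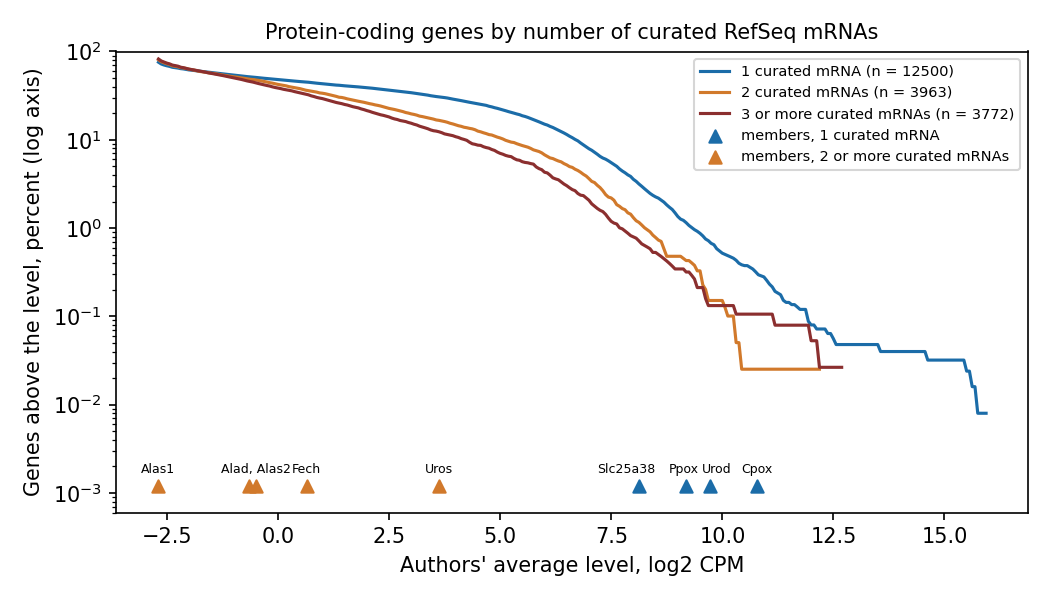
Percent of protein-coding genes (log axis) whose average level exceeds the log2 CPM on the horizontal axis, by number of curated RefSeq mRNAs, with the 9 members as triangles whose height has no meaning. The curve of the 12500 genes with 1 curated mRNA lies above the others at high levels, and all 4 members of that class stand in its upper end.

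Most further genes of the pathway were listed well above 1 CPM. Of 11 further genes of heme synthesis and mitochondrial heme handling, 7 lay above 100 CPM. Abcb10, a mitochondrial transporter needed for heme synthesis in red cells, was the highest of the 11 per kb, with 304 CPM per kb. Slc25a37, the mitochondrial iron importer mitoferrin of erythroblasts, was listed at 249 CPM, and Glrx5, an iron-sulfur cluster glutaredoxin, at 715 CPM. Clpx, a mitochondrial unfoldase that activates aminolevulinate synthase, was the lowest of the 11 per kb, with 0.341 CPM per kb (1.19 CPM), and has 2 curated mRNAs.

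Heme export and breakdown, heme and iron sensing, and iron uptake and storage were taken as 3 more lists. In the first, of 8 genes, Blvrb, biliverdin reductase B, with 2 curated mRNAs, was highest per kb (438 CPM per kb). Blvra, biliverdin reductase A, with 1 curated mRNA, was lowest (0.189 CPM per kb). Hmox1, the heme oxygenase that opens the ring, was listed at 491 CPM. In this list the 4 genes with 1 curated mRNA had a median of 4.65 log2 CPM and the 4 with more had 4.94, so it did not show the split of the members. Among 6 sensing genes, Eif2ak1, the heme-regulated kinase that slows globin translation, was highest at 117 CPM per kb, and Ppargc1a, a coactivator that induces Alas1 in fasting, was listed at the lowest value of the table. Among 6 genes of iron uptake and storage, ferritin heavy chain, Fth1, was highest with 923 CPM per kb, and Ncoa4, the receptor for ferritin breakdown, was lowest with 0.0791 CPM per kb. The transferrin receptor, Tfrc, the entry route of iron into erythroblasts, was listed at 33.8 CPM with 2 curated mRNAs. Counts were also pooled over these 4 lists and the lists of globins and cell markers described next. Above 100 CPM lay 37 of 54 genes with 1 curated mRNA, against 5 of 22 genes with 2 or more. Over all protein-coding genes the shares were 10.4% and 3.75%. The globin and sensing lists held no gene with 2 or more curated mRNAs. In the export list 1 of 4 genes with 1 and 2 of 4 genes with more lay above 100 CPM.

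Markers of the tissue were checked by the same column. Of 9 globin genes sought, 6 had a row, and the adult genes Hba-a2, Hbb-bs (listed under its older symbol Beta-s) and Hbb-b1 were listed at 49707, 44564 and 24904 CPM, values that are uncertain singly because globin copies share reads. The embryonic beta-like globin Hbb-y was listed at 273 CPM. Per kb, Hba-a2 was highest of the globins with an exon length, at 74524 CPM per kb, and Hbb-bh1, another embryonic form, was lowest at 29.2. Of 13 erythroid markers, 12 had a row and 9 lay above 100 CPM, among them Gata1 (367 CPM) and Klf1 (692 CPM), both transcription factors of red cells, while Ank1, the ankyrin of the red cell membrane with 9 curated mRNAs, was listed at the lowest value. Of 10 hepatocyte markers 8 lay above 100 CPM, with Alb, albumin, highest at 63314 CPM, and Hnf4a, a master regulator of hepatocytes with 3 curated mRNAs, was listed at the lowest value. Macrophage markers were above 100 CPM in 3 of 7 genes, megakaryocyte markers in 2 of 5 and endothelial markers in 2 of 5. The defining genes Adgre1 (macrophages, 3 curated mRNAs) and Pecam1 (endothelium, 4 curated mRNAs) were listed at the lowest value. Other markers went the other way, with Ahsg (3 curated mRNAs) at 6781 CPM, Apoa2 (4) at 2251 CPM and the erythroid factor Nfe2 (6) at 572 CPM, while Serpina1b, Csf1r and Cd68, with 1 each, lay under 1 CPM. The 7 hepatocyte markers with 1 curated mRNA had a median of 11.34 log2 CPM and the 3 with more had 11.14, so this list did not show the split of the members either. The share of heme synthesis that belongs to each cell type was not measured.

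**Figure D3:**
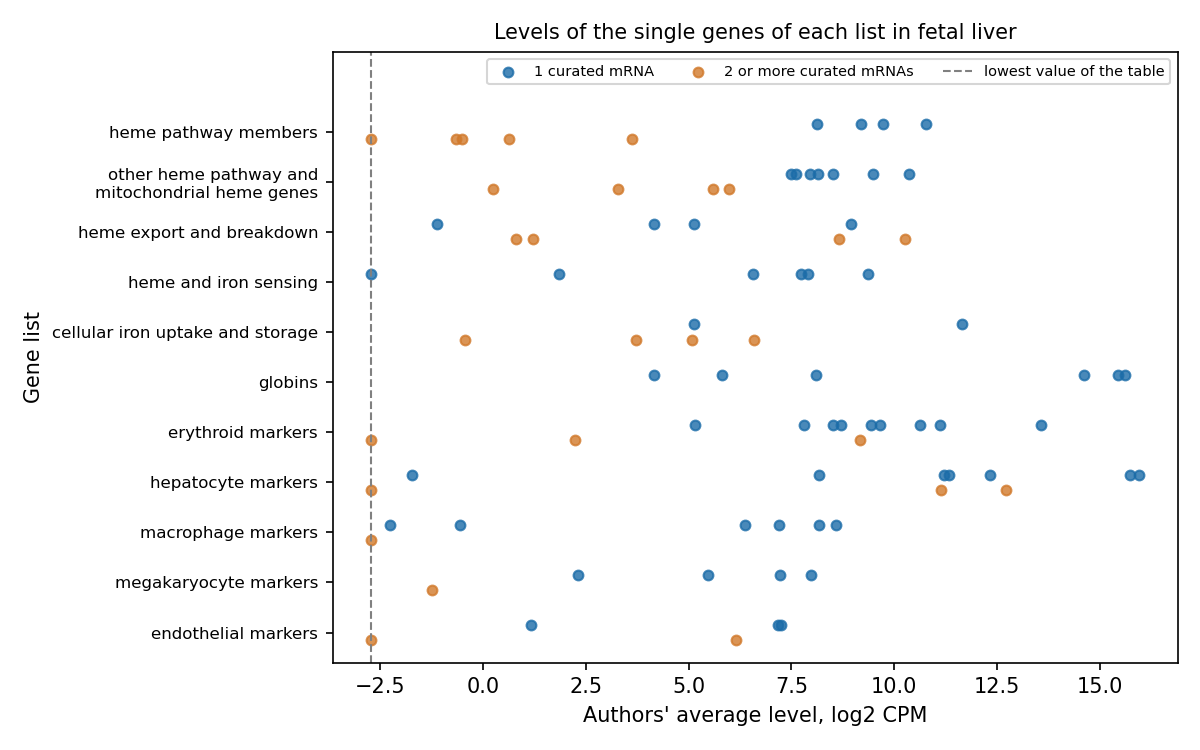
Average level in log2 CPM of each gene with a row, by list, with blue points for genes with 1 curated mRNA and orange points for genes with 2 or more. Of the 5 list genes outside the members at the lowest value of the table, 4 are orange. Over all protein-coding genes, 24.4% of those with 1 curated mRNA and 18.5% of those with 2 or more are at that value. Among the members the blue and orange points do not overlap, whereas Fech would be blue if mRNAs were counted by their match to GENCODE.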

How the data were processed

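Whole livers of 6 control and 6 HFD fetuses were profiled. Per the labels, reads were trimmed with cutadapt 1.2.1, aligned to mm10 with Subread 1.3.6-p1 and analysed with edgeR by the authors. The read counter, its settings and the edgeR version are not given in the sources used here. The authors deposited 1 table with 30743 rows. Its average log2 CPM column, made by the authors and the same for both dispersions, was the one measurement used. The other 8 value columns hold the authors' log2 and signed fold changes, p-values and adjusted p-values under 2 dispersions and were left out. Depth per liver and errors between livers are therefore unknown, and no test was run.

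Symbols were matched to RefSeq (GRCm38.p6), 20235 protein-coding genes in all and 1872 of them through an older symbol. Exon, longest transcript and coding lengths came from GENCODE M21, with an exon length for 19846 genes. Level per kb is CPM divided by the summed length of all annotated exons. Percentiles count ties at equal parts below and above. The members and lists were chosen with earlier results of these data known. All 9 members were named, and of other lists the highest and lowest gene per kb and genes that define the list. Other named genes, the 2 lists in the closing section and the count of curated mRNAs were chosen after values were seen. Some genes of the lists are not reported here and are left out of the lists' counts and medians. The functions for shared bases, percentiles, promoter motifs and hairpins were tested on made-up inputs with known answers. The other computations were not tested in this way. Software versions were Python 3.11.15, numpy 2.4.6, pandas 2.3.3 and matplotlib 3.10.9.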

Additional observations from a re-analysis of the deposited data

How the results depend on the processing

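The median level per kb of the 9 members was 3.43 CPM per kb by exon length. It was 5.60 by longest transcript, 15.4 by coding length, 12.3 CPM without length, and 3.39 with the lowest level of the table subtracted. The share of Alas2 was 0.0355%, and 0.0242%, 0.0143%, 0.0203% and 0.0279% in the same order. The median percentile of the members was 73.6 among rows above the lowest value, 83.1 among all rows, 49.0 among rows above 1 CPM and 69.7 per kb. The same 4 members were highest under all 5 scales, with Urod first by exon length and Cpox first by coding length and without length. An Alas2 to Alas1 ratio could not be given, because Alas1 was at the lowest value. The gap of 4.50 log2 units between members with 1 and with more curated mRNAs, an analysis chosen after seeing the data, was 4.88 by exon length, 4.56 by longest transcript and 4.20 by coding length. It became -2.98 when mRNAs were counted by their match to GENCODE, because Fech then had 1. Leaving out single livers was not run, because it needs a value for every liver. No paired analysis was possible because single livers have no values here. The depth of single livers, which would limit low genes such as Alas2, is unknown.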

Other observations

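Among 16 enzyme genes of the TCA cycle, which makes the succinyl-CoA used by aminolevulinate synthase, 11 lay above 100 CPM. The 10 genes with 1 curated mRNA had a median of 8.18 log2 CPM, and the 6 with more had a median of 4.63. Sucla2, the ADP-forming subunit of succinyl-CoA ligase, was listed at 3.15 log2 CPM with 2 curated mRNAs, and its partner Suclg1 at 7.61 with 1. Suclg2, the alternative partner of Suclg1, was listed at 6.10 log2 CPM, also with 2. Ogdh, the dehydrogenase part of the complex that forms succinyl-CoA, was listed at -0.87 log2 CPM with 9 curated mRNAs. Dlst and Dld, the other parts of that complex, were listed at 6.66 and 8.31 with 1 each. Idh3a went the other way, at -1.23 log2 CPM with 1, as did Idh3b and Sdhb, at 8.15 and 7.64 with 2 each.

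The cytosolic aminoacyl-tRNA synthetases, which every cell uses, had 19 rows for 20 genes sought. The lowest value of the table held 3 of them, Farsb, Nars and Wars, and each of these has 2 or more curated mRNAs. Over all protein-coding genes the lowest value was more common with 1 curated mRNA (24.4%) than with 2 or more (18.5%). The 11 synthetases with 1 curated mRNA had a median of 8.00 log2 CPM and the 8 with more had a median of -0.16. The classes overlapped, with Eprs and Dars (2 each) at 7.72 and 5.99, and Qars, Farsa and Vars (1 each) at 0.87, 2.42 and 3.23. Farsb and Farsa, the subunits of 1 enzyme, were listed at -2.71 and 2.42. Both lists were added after values were seen. Over all protein-coding genes the median was -0.36 log2 CPM with 1 curated mRNA and -0.90 with 2 or more. Not every list above showed such a difference, and any link between level and number of mRNAs was not tested.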
